A study of Homo sapiens with 12 samples.

Results

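Host genes are long non-coding RNA genes whose transcripts carry small RNAs inside them, either small nucleolar RNAs (snoRNAs) or microRNAs. All genes named SNHG plus a number, all genes whose names begin with MIR and end with HG apart from MIR222HG, and GAS5 were taken from the table of HEK293 libraries by their GENCODE release 44 symbols. This rule was met by 64 of the 26058 genes listed, namely 26 snoRNA hosts (GAS5 counted among them) and 38 microRNA hosts. A further 48 annotated symbols met the rule without a row in the table, 3 of them snoRNA hosts and 45 microRNA hosts. The rule itself uses no measured value, but it was set with earlier results of these data known.

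HEK293 is a human embryonic kidney cell line. Wild-type (WT) cells were compared with cells in which both catalytic subunits of the AMP-activated protein kinase, PRKAA1 and PRKAA2, had been knocked out by CRISPR (AMPK KO, received as an existing line). Both lines were serum-starved for 24 h, which in this study means medium with little serum and not its absence. They were then given DMSO, the solvent, for 50 min, DMSO with epidermal growth factor (EGF) present over the last 30 min, or 25 µM cordycepin with EGF over the same period. Cordycepin is an adenosine analogue that lacks the 3′ hydroxyl group and impairs polyadenylation. Total RNA depleted of ribosomal RNA was sequenced from 2 libraries per group, numbered 2 and 3, which gave 12 libraries in 6 groups. The study calls these biological replicates without saying how the cultures were separated, so part of the spread behind the p-values may be technical, and the AMPK KO cells represent a single line.

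In snoRNA hosts the small RNA is usually cut out of a spliced intron and guides chemical modification of ribosomal or spliceosomal RNA, whereas the joined exons leave the nucleus and are mostly degraded as they are translated. Many snoRNA hosts, like ribosomal protein genes, begin with a stretch of pyrimidines, and their output is tied to growth. In microRNA hosts Drosha cuts a hairpin from the primary transcript and Dicer trims it to the mature microRNA, which pairs with target mRNAs mainly through its seed. The libraries were made from long RNA and not to hold the mature small RNAs. Whether reads of small RNAs that lie within host exons enter the host values was not tested.

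WT DMSO replicate 3 was the shallowest library with 3806335 recovered reads, and the other 11 held 12016743 to 25104904. The log2 values of all genes correlated less between the 2 WT DMSO libraries (r = 0.918 across genes) than in any other group (0.961 to 0.977). PRKAA1 read 11.2 to 21.9 RPKM (reads per kilobase of exon, scaled to the depth of the library) in the WT libraries and 7.03 to 8.51 in the AMPK KO libraries, and PRKAA2 read 6.78 to 12.1 and 5.39 to 7.43. Of the HEK293 markers NEFL, VIM, LIN28B and KRT18 were read at 11.7 RPKM or more in every library, NEFM and PAX2 stayed under 1 RPKM, and the leukocyte gene PTPRC reached at most 0.061 RPKM.

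The sequences of the mature microRNAs show which hosts carry the same targeting information. RefSeq (GRCh38.p14) gave mature sequences for 60 of the 63 microRNA genes that lie within the listed hosts, in all 98 sequences with 84 different seeds. The seed (bases 2 to 8, in capitals) of the let-7 family occurred in 5 hosts. Sequences of the let-7 hosts described below are given first. They are followed by microRNAs of MIR17HG, without miR-19b-3p, and single microRNAs of MIR34AHG, MIR503HG and MIR155HG.
hsa-let-7b-5p (MIRLET7BHG, chr22:46113691-46113712, plus strand): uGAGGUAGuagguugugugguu
hsa-let-7i-5p (MIRLET7IHG, chr12:62603691-62603712, plus strand): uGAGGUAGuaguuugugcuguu
hsa-miR-4458 (MIR4458HG, chr5:8460933-8460951, plus strand): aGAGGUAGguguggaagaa
hsa-miR-17-5p (MIR17HG, chr13:91350618-91350640, plus strand): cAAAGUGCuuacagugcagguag
hsa-miR-20a-5p (MIR17HG, chr13:91351072-91351094, plus strand): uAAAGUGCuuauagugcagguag
hsa-miR-18a-5p (MIR17HG, chr13:91350756-91350778, plus strand): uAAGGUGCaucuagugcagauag
hsa-miR-19a-3p (MIR17HG, chr13:91350939-91350961, plus strand): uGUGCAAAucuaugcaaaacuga
hsa-miR-92a-3p (MIR17HG, chr13:91351361-91351382, plus strand): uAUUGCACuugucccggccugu
hsa-miR-34a-5p (MIR34AHG, chr1:9151735-9151756, minus strand): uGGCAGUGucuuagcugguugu
hsa-miR-503-5p (MIR503HG, chrX:134546371-134546393, minus strand): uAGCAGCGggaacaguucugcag
hsa-miR-155-5p (MIR155HG, chr21:25573983-25574006, plus strand): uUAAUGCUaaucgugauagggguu

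MIR17HG, the primary transcript of the miR-17-92 cluster, holds 6 microRNA genes within an exon. The seed is the same in miR-17-5p and miR-20a-5p, and another is the same in miR-19a-3p and miR-19b-3p.

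The bases on both sides of the RefSeq start were compared between the 2 kinds of host. A run of at least 6 C or T letters on the transcript strand that covered the RefSeq start or lay within 5 bases of it was found in 14 of 22 snoRNA hosts with a promoter entry (63.6%), in 8 of 35 microRNA hosts (22.9%) and in 22.8% of all 27305 promoters. The windows below hold 15 bases before and 15 bases from the RefSeq start, with the run at the start in capitals where there is one (where several met the rule, one that covers the start). They show hosts whose values are described below, with and without a run. The MIR17HG run lies wholly before the start, so a counted run need not be part of the transcript.
SNHG32 (chr6:31834901-31834930, plus strand): ctcgccattttagTTCTTTTTgcgaagtgg
SNHG19 (chr16:2155344-2155373, minus strand): ctcgcccgcccctgTCTTTTCggggtcgag
SNHG4 (chr5:139274086-139274115, plus strand): ctcggctcccggctgCCCTTTCCCCTCCgg
SNHG7 (chr9:136728170-136728199, minus strand): gcttcccttctcgTCCTCTgcgtgcgccgg
SNHG26 (chr7:22854225-22854254, plus strand): ccttttaaacttgatctccgcagtgccctc
GAS5 (chr1:173869031-173869060, minus strand): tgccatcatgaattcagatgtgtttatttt
MIR17HG (chr13:91347672-91347701, plus strand): gagccgccgCCCTTCattcacccacatggt
MIR34AHG (chr1:9182324-9182353, minus strand): gctggcgccgccttcatgcgccctgcctgg

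The RefSeq start lies 114 bases from the outermost GENCODE start for SNHG26, 163 for GAS5, 308 for SNHG32 and 16568 for MIR34AHG, so these windows say nothing of other starts of the genes. A window without capitals has no such run at or within 5 bases of this start, although a run may lie further away, as at the left end of the SNHG26 window.

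GENCODE placed 133 snoRNAs, 5 small Cajal body RNAs and 63 microRNAs inside the listed hosts. Of these 201 small RNAs 112 lay within an annotated exon, 79 in an intron and 10 partly in an exon. SNHG14, the long transcript of the Prader-Willi region, held 84 of the snoRNAs but was read at only 0.0432 to 0.176 RPKM. SNHG1 held 7 and was among the most abundant hosts. No small RNA was placed inside GAS5 by this annotation, although GAS5 is known as a snoRNA host, so the counts of hosted small RNAs include none for it.

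The snoRNA hosts were the more abundant class. Their mean RPKM over the 12 libraries had a median of 5.12 and a maximum of 40.5, and 9 of 26 reached 10 RPKM. The microRNA hosts had a median of 1.37 and a maximum of 7.96 RPKM, and none of the 38 reached 10 RPKM. Genes with a mean of at least 0.5 RPKM were tested, which left 25 snoRNA hosts (without SNHG14) and 32 microRNA hosts (without MIR193BHG, MIR99AHG, MIR9-1HG, MIR9-3HG, MIR23AHG and MIR31HG).

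SNHG3, which carries SNORA73A and SNORA73B, was the most abundant host. It read 42.5 and 33.7 RPKM in WT DMSO, 37.7 and 47.6 in WT DMSO+EGF, 33.7 and 40.7 in WT cordycepin+EGF, 36.6 and 36.7 in AMPK KO DMSO, 36.3 and 36.1 in AMPK KO DMSO+EGF, and 50.6 and 54.0 in AMPK KO cordycepin+EGF. The last group lay above all other libraries. GAS5, known for its accumulation in growth-arrested cells, read 17.6 and 19.0 RPKM in WT DMSO, 20.2 and 23.0 in WT DMSO+EGF, 19.9 and 23.2 in WT cordycepin+EGF, 19.6 and 22.0 in AMPK KO DMSO, 20.6 and 17.9 in AMPK KO DMSO+EGF, and 22.2 and 20.3 in AMPK KO cordycepin+EGF. These values spanned a narrow range, and no comparison gave GAS5 an unadjusted p below 0.05. SNHG1, host of SNORD22, SNORD25 to SNORD28 and SNORD30, read 21.2 and 17.1 in WT DMSO, 22.6 and 24.8 in WT DMSO+EGF, 20.5 and 20.1 in WT cordycepin+EGF, 16.8 and 17.2 in AMPK KO DMSO, 20.5 and 19.0 in AMPK KO DMSO+EGF, and 20.7 and 23.2 in AMPK KO cordycepin+EGF. SNHG29, host of SNORD49A, SNORD49B and SNORD65, read 14.4 and 17 in WT DMSO, 17.6 and 16.3 in WT DMSO+EGF, 18.1 and 19.6 in WT cordycepin+EGF, 21.9 and 22.8 in AMPK KO DMSO, 19.4 and 20.0 in AMPK KO DMSO+EGF, and 16.5 and 19.1 in AMPK KO cordycepin+EGF. SNHG1 was lowest without EGF in AMPK KO cells and in WT DMSO replicate 3, and SNHG29 was highest in AMPK KO DMSO.

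For the classes as a whole, each gene's log2 value was set against its own mean over the 12 libraries and the median was taken over the members. The snoRNA hosts stood at -0.20 and -0.25 in the WT DMSO libraries, at 0.06 and 0.15 in WT DMSO+EGF and at 0.05 and 0.19 in WT cordycepin+EGF. In AMPK KO cells they stood at -0.21 and 0.04 in DMSO, at -0.05 and -0.18 in DMSO+EGF and at 0.24 and 0.15 in cordycepin+EGF. WT DMSO therefore did not overlap the other 2 WT groups, and AMPK KO cordycepin+EGF did not overlap the other 2 AMPK KO groups. The microRNA hosts ranged from -0.17 to 0.32, and their WT DMSO and WT DMSO+EGF libraries overlapped. In AMPK KO cordycepin+EGF they stood at 0.32 and 0.08, also above their other AMPK KO libraries (-0.17 to -0.07). All genes tested were likewise higher there, at 0.03 and 0.02 against -0.013 to -0.003. Before this centring the class median of the log2 values varied within groups with a pooled SD of 0.0779 for the snoRNA hosts and 0.167 for the microRNA hosts.

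**Figure D1:**
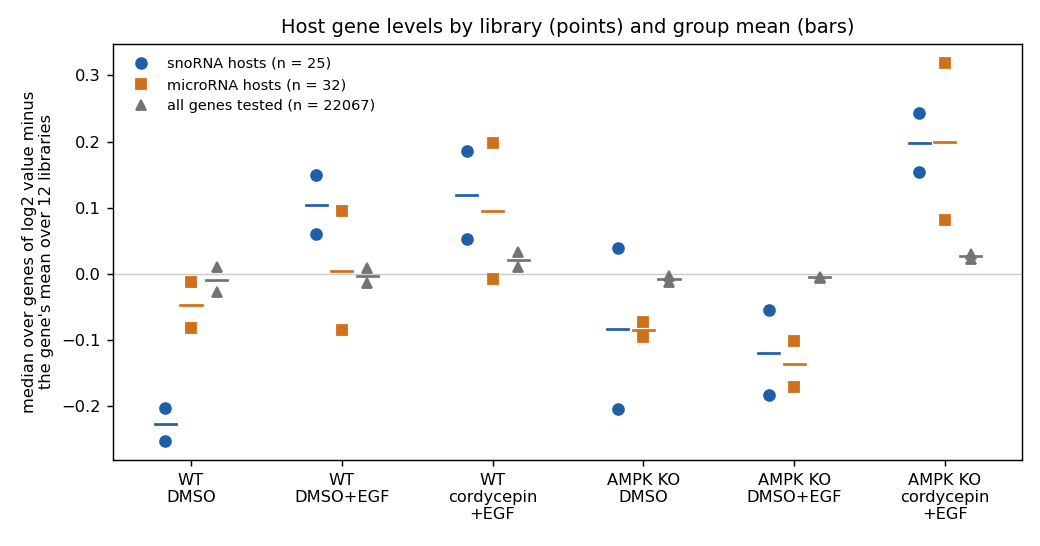
Median over the snoRNA hosts (blue circles), microRNA hosts (orange squares) and all genes tested (grey triangles) of the log2 value minus the gene's own 12-library mean, for each library (points) and as the mean of the 2 libraries of a group (bars). The snoRNA hosts were on average lowest in WT DMSO, at -0.20 and -0.25, and highest in AMPK KO cordycepin+EGF, at 0.24 and 0.15.

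The first comparison asked how host transcripts responded to EGF within 30 min in WT cells. Of 25 snoRNA hosts 24 had a positive log2 fold change (52.3% of all genes did), with a median of 0.37. The median was 0.02 for all genes tested and -0.01 for the 4516 other long non-coding RNA genes. Of 32 microRNA hosts 15 were above 0 and their median was -0.02. No host passed an adjusted p of 0.05 (limma with Benjamini-Hochberg adjustment), against 0.0227% of all genes, and voom on the recovered reads gave 0 hosts as well. At an unadjusted p below 0.05 there were 8 snoRNA hosts and 2 microRNA hosts with higher values (background 6.18% of all genes) and no host with lower values (background 3.53%). Both libraries with EGF lay above both without it for 16 snoRNA hosts and 10 microRNA hosts (background 18.7%), and below both for 0 and 6 (background 18%).

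The comparison rested in part on WT DMSO replicate 3, the library of lowest depth. Without it 21 of 25 snoRNA hosts were above 0 and the class median was 0.27, and without WT DMSO replicate 2 there were 22 with a median of 0.42.

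SNHG32, which carries SNORD48 and SNORD52, had the largest difference among the snoRNA hosts with an unadjusted p below 0.05. It read 7.17 and 4.83 RPKM in WT DMSO and 11.8 and 10.9 in WT DMSO+EGF, with a log2 fold change of 0.86 (SE 0.179, unadjusted p = 0.001, adjusted p = 0.417 in limma). The groups did not overlap. SNHG7, host of SNORA17A and SNORA17B, read 4.81 and 6.14 RPKM before and 8.41 and 10.1 after EGF, a log2 fold change of 0.69 (SE 0.235). SNHG20, which carries SCARNA16 and the microRNA gene MIR6516, read 2.77 and 3.10 RPKM before and 4.52 and 4.66 after EGF (log2 fold change 0.54, SE 0.223). In the remaining groups SNHG7 read 9.36 and 14.4 in WT cordycepin+EGF, 7.20 and 11.1 in AMPK KO DMSO, 8.22 and 7.49 in AMPK KO DMSO+EGF, and 7.80 and 6.93 in AMPK KO cordycepin+EGF, and SNHG20 read 4.05 and 6.35 in WT cordycepin+EGF, 3.31 and 3.56 in AMPK KO DMSO, 3.01 and 3.52 in AMPK KO DMSO+EGF, and 6.80 and 4.66 in AMPK KO cordycepin+EGF. The spread between the 2 libraries of a group was widest with cordycepin for SNHG20. The other snoRNA hosts at this level were SNHG1, SNHG11, SNHG12, SNHG17 and SNHG30, with log2 fold changes between 0.28 and 0.54, and SNHG31 was the only one below 0, at -0.24.

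The 2 microRNA hosts at this level carry the miR-17-92 cluster and a let-7 group. MIR17HG read 7.61 and 6.85 RPKM in WT DMSO and 10.5 and 12.3 in WT DMSO+EGF (log2 fold change 0.60, SE 0.147, unadjusted p = 0.00289). MIRLET7BHG, host of let-7a-3 and let-7b, read 5.24 and 3.62 RPKM before and 6.98 and 7.68 after EGF (log2 fold change 0.66, SE 0.191). In both genes the 2 WT DMSO+EGF libraries lay above the 2 WT DMSO libraries. In the remaining groups MIRLET7BHG read 5.70 and 6.02 in WT cordycepin+EGF and 4.40 and 6.0 in AMPK KO DMSO, all below its 2 values in WT DMSO+EGF. MIR503HG, host of miR-503, read 1.70 and 1.57 RPKM before and 2.71 and 1.98 after EGF, a log2 fold change of 0.38 with an SE of 0.207.

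In AMPK KO cells the same treatment gave no such shift. The median log2 fold change was -0.09 for the snoRNA hosts, of which 9 of 25 were above 0. It was -0.04 for the microRNA hosts, of which 14 of 32 were above 0. Of all genes 51.4% were above 0. No host had an adjusted p below 0.05 in limma (background 0.0136%) or with voom, and none had an unadjusted p below 0.05 (background 1.03% higher and 1.4% lower). SNHG32 read 4.62 and 4.08 RPKM in AMPK KO DMSO and 4.46 and 4.54 in AMPK KO DMSO+EGF (log2 fold change 0.06, SE 0.179). MIR17HG read 6.23 and 7.94 RPKM before and 7.87 and 7.06 after EGF (log2 fold change 0.09, SE 0.147), and the groups overlapped. Without AMPK KO DMSO replicate 3 the median of the snoRNA hosts was 0.03 in place of -0.09.

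The difference between the lines was tested as such. The EGF effect in AMPK KO minus that in WT had a median of -0.41 over the snoRNA hosts, of which 22 of 25 were below 0. The median was -0.05 over the microRNA hosts and -0.01 over all genes, of which 51.1% were below 0. No gene in the table passed an adjusted p of 0.05 in limma (0%), where 1917 genes had an unadjusted p below 0.05, and voom gave 0 genes. At an unadjusted p below 0.05 the difference was negative for 6 snoRNA hosts and 3 microRNA hosts (background 5.38%) and positive for none (background 3.3%). The largest of these were SNHG19 (-0.86, SE 0.38), SNHG7 (-0.85, SE 0.332) and SNHG32 (-0.80, SE 0.254) among the snoRNA hosts. Among the microRNA hosts they were MIRLET7BHG (-0.77, SE 0.271), MIR503HG (-0.69, SE 0.293) and MIR17HG (-0.51, SE 0.208). The adjusted p values of these 6 hosts lay between 0.57 and 0.573.

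**Figure D2:**
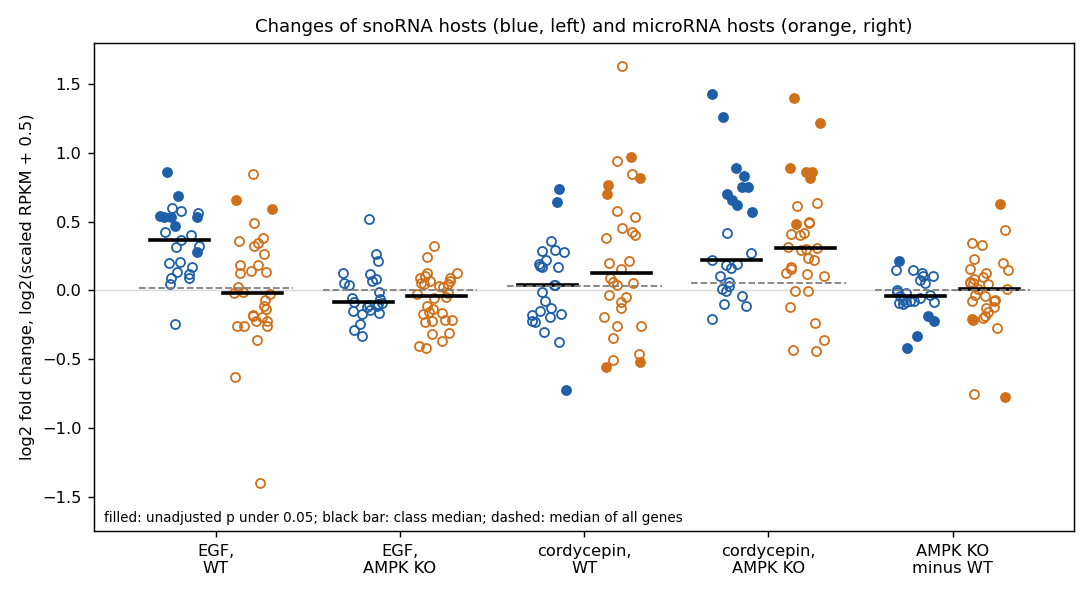
Log2 fold change of each tested snoRNA host (blue, left) and microRNA host (orange, right) in 5 comparisons, with filled points for an unadjusted p below 0.05, black bars for class medians and dashed lines for the median of all genes tested. Of the snoRNA hosts 24 of 25 lay above 0 for EGF in WT cells (52.3% of all genes did), with a median of 0.37. They scattered around -0.09 for EGF in AMPK KO cells.

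The next comparison asked what cordycepin did to host transcripts in cells that received EGF. It has the WT DMSO+EGF libraries in common with the EGF comparison, so the 2 sets of values are not independent. In WT cells 13 of 25 snoRNA hosts and 20 of 32 microRNA hosts were above 0 (53.5% of all genes were). Their medians were 0.04 and 0.13, against 0.03 for all genes and 0.14 for the other long non-coding RNA genes. No host had an adjusted p below 0.05 in limma (background 0.00453%). With voom 3 of the hosts did, against 3.5% of all genes. At an unadjusted p below 0.05, 2 snoRNA and 4 microRNA hosts had higher values (background 8.86%) and 1 snoRNA and 2 microRNA hosts lower values (background 7.13%). The cells with cordycepin lay above in both libraries for 6 snoRNA and 13 microRNA hosts (background 29.2%), and below for 8 and 7 (background 24.7%).

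Members of the same class went opposite ways. SNHG32 read 11.8 and 10.9 RPKM without and 6.57 and 6.33 with cordycepin (log2 fold change -0.72, SE 0.179, unadjusted p = 0.00296, adjusted p = 0.262 in limma), between its 2 values in WT DMSO. SNHG5, host of SNORD50B, read 5.52 and 6.50 RPKM without and 8.59 and 11.6 with cordycepin (0.74, SE 0.215). SNHG19, host of SNORD60, read 14.4 and 18.8 RPKM without and 19.1 and 33.3 with cordycepin (0.65, SE 0.268). In each of the 3 genes the groups did not overlap, and replicate 3 with cordycepin was far above replicate 2 for SNHG19. Without EGF SNHG5 read 5.69 and 5.30 in WT DMSO and 5.28 and 7.83 in AMPK KO DMSO, and in AMPK KO cells with EGF it read 6.83 and 5.48 in AMPK KO DMSO+EGF and 10.6 and 8.28 in AMPK KO cordycepin+EGF. Without EGF SNHG19 read 9.66 and 11.7 in WT DMSO and 14.1 and 16.5 in AMPK KO DMSO. SNHG5 was thus above 8 RPKM in all 4 libraries with cordycepin and below it in the other 8.

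Among the microRNA hosts MIR17HG read 10.5 and 12.3 RPKM without and 6.80 and 7.96 with cordycepin (-0.55, SE 0.147), and MIR503HG read 2.71 and 1.98 without and 1.67 and 1.20 with it (-0.52, SE 0.207). The 3 microRNA hosts with the largest changes under the naming rule follow, all above 0. MIR3677HG read 1.29 and 0.930 RPKM without and 2.02 and 3.24 with cordycepin (0.97, SE 0.336), MIR219A2HG 0.498 and 0.364 without and 1.06 and 1.16 with it (0.82, SE 0.324), and MIR3936HG 1.71 and 1.85 without and 3.04 and 3.54 with it (0.77, SE 0.27). The groups did not overlap for any of these 5 hosts, although MIR3677HG and MIR219A2HG had as few as 8 and 4 reads in a library. In the other groups MIR3677HG read 0.839 and 2.03 in WT DMSO, 2.39 and 1.55 in AMPK KO DMSO, 1.33 and 1.85 in AMPK KO DMSO+EGF, and 1.60 and 1.78 in AMPK KO cordycepin+EGF. MIR219A2HG read 0.156 and 0.826 in WT DMSO, 0.519 and 0.767 in AMPK KO DMSO, 0.433 and 0.819 in AMPK KO DMSO+EGF, and 1.32 and 1.02 in AMPK KO cordycepin+EGF, and MIR3936HG without EGF read 1.53 and 2.89 in WT DMSO and 2.95 and 3.68 in AMPK KO DMSO. WT DMSO replicate 2 had the lowest value of the 12 libraries for each of these 3 hosts.

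In AMPK KO cells cordycepin gave higher values for most hosts of both classes. Of 25 snoRNA hosts 20 were above 0 with a median of 0.22, and of 32 microRNA hosts 25 were above 0 with a median of 0.31. The other long non-coding RNA genes had a median of 0.27, with 75.3% above 0, and all genes a median of 0.06, with 55.1% above 0. No host had an adjusted p below 0.05 in limma (background 0.471%), SNHG26 being nearest at 0.0511. With voom 11 of the hosts did, against 5.38% of all genes. At an unadjusted p below 0.05, 10 snoRNA and 7 microRNA hosts had higher values (background 11.7%) and none lower values (background 10.1%). Among the other long non-coding RNA genes 17.3% had higher values at this level. Both libraries with cordycepin lay above those without for 16 hosts of each class (background 32.2%), and below for 1 snoRNA and 2 microRNA hosts (background 27%).

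Without WT DMSO replicate 2 or without WT DMSO replicate 3, neither of which is part of the contrast, 11 hosts had an adjusted p below 0.05, against 6.16% and 6.12% of all genes. These libraries entered the test through the common estimate of the spread. The share of reads from long non-coding RNA genes was 6.07% in AMPK KO cordycepin+EGF replicate 2 and 3.94 to 5.15% in the other 11 libraries, and its part in these values was not tested.

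SNHG26, host of SNORD93, read 1.82 and 1.33 RPKM without and 4.80 and 4.96 with cordycepin in AMPK KO cells (log2 fold change 1.43, SE 0.251). In the other groups it read 2.94 and 1.46 in WT DMSO, 3.05 and 2.94 in WT DMSO+EGF, 2.43 and 2.39 in WT cordycepin+EGF, and 1.45 and 1.58 in AMPK KO DMSO. The 2 AMPK KO libraries with cordycepin were the highest of the 12. SNHG19 read 11.3 and 13.4 RPKM without and 35.3 and 24.2 with cordycepin (1.26, SE 0.268, adjusted p = 0.0654 in limma), and SNHG32 read 4.46 and 4.54 without and 7.81 and 9.21 with it (0.89, SE 0.179, adjusted p = 0.0623). SNHG4, host of SNORA74A and SNORA74D, read 12.4 and 11.8 RPKM without and 19.4 and 23.1 with cordycepin (0.83, SE 0.185), and SNHG3, whose values are given above, had a log2 fold change of 0.57 (SE 0.15). The groups were separate for all of these. In the other groups SNHG4 read 18.5 and 12.3 in WT DMSO, 18.3 and 17.2 in WT DMSO+EGF, 13.1 and 13.2 in WT cordycepin+EGF, and 12.1 and 10.2 in AMPK KO DMSO, and WT DMSO replicate 2 and WT DMSO+EGF reached nearly the level of AMPK KO cells with cordycepin. The remaining snoRNA hosts with an unadjusted p below 0.05 were SNHG5, SNHG10, SNHG12, SNHG20 and SNHG25, with log2 fold changes of 0.62 to 0.75.

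**Figure D3:**
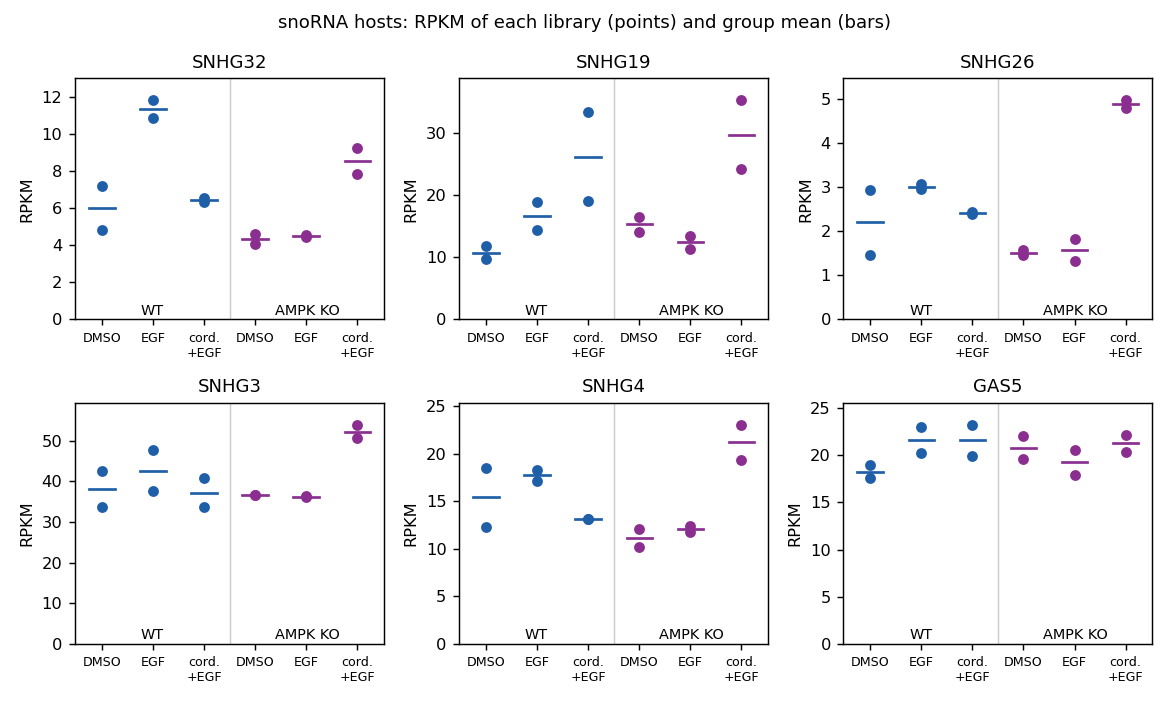
RPKM of 6 snoRNA hosts in each library (points) and as group means (bars), for WT cells (blue, left) and AMPK KO cells (purple, right) with DMSO, EGF or cordycepin and EGF. SNHG32 was highest in WT cells with EGF, at 11.8 and 10.9 RPKM, SNHG26 was highest in AMPK KO cells with cordycepin, at 4.80 and 4.96 RPKM, and the groups of GAS5 lay close together.

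Of the microRNA hosts MIR155HG read 0.570 and 0.326 RPKM without and 2.31 and 1.58 with cordycepin (1.40, SE 0.474), but it had only 1 read in WT DMSO replicate 3, which lies outside this contrast. MIR194-2HG, host of miR-192 and miR-194-2, read 0.158 and 0.634 RPKM without and 1.91 and 1.1 with cordycepin (1.21, SE 0.392). MIRLET7IHG read 1.92 and 1.77 RPKM without and 4.46 and 3.07 with cordycepin (0.89, SE 0.199, adjusted p = 0.07 in limma). All 3 were higher in both libraries with cordycepin, and replicate 2 exceeded replicate 3 in each. In the other groups MIR155HG read 1.62 and 0.140 in WT DMSO, 1.04 and 0.993 in WT DMSO+EGF, 0.957 and 0.948 in WT cordycepin+EGF, and 0.988 and 0.547 in AMPK KO DMSO, and MIR194-2HG read 0.0322 and 0.612 in WT DMSO, 0.324 and 0.116 in WT DMSO+EGF, 0.759 and 0.768 in WT cordycepin+EGF, and 0.605 and 0.415 in AMPK KO DMSO. MIRLET7IHG read 2.26 and 2.34 in WT DMSO, 2.12 and 1.67 in WT DMSO+EGF, 2.70 and 2.54 in WT cordycepin+EGF, and 2.03 and 1.76 in AMPK KO DMSO. All were lower there than in AMPK KO cordycepin+EGF replicate 2. MIR503HG, at 1.62 and 1.48 in AMPK KO DMSO, read 1.23 and 1.06 RPKM without and 2.16 and 2.67 with cordycepin (0.86, SE 0.207). MIRLET7BHG read 4.40 and 4.98 without and 6.92 and 6.16 with it (0.48, SE 0.191), whereas MIR17HG, at 7.87 and 7.06 without and 7.44 and 6.93 with it, gave -0.01 (SE 0.147).

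The cordycepin effect in AMPK KO minus that in WT was above 0 for 17 of 25 snoRNA hosts and 19 of 32 microRNA hosts. It was above 0 for 51.2% of all genes. The host medians were 0.30 and 0.31, against 0.02 for all genes and 0.15 for the other long non-coding RNA genes. No gene had an adjusted p below 0.05 in limma (0% of the table), and 4716 genes had an unadjusted p below 0.05. Of the hosts 6 snoRNA and 5 microRNA hosts had a positive difference at an unadjusted p below 0.05 (background 10.9%), and only 1 host, MIR3936HG, a negative one (background 10.5%). SNHG32, SNHG4, SNHG3 and SNHG26 had log2 fold changes below 0 in WT and above 0 in AMPK KO cells, with differences of 1.62 (SE 0.254), 1.21 (SE 0.261), 0.72 (SE 0.212) and 1.66 (SE 0.355). Of these only SNHG32 had an unadjusted p below 0.05 in WT cells.

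MIR503HG likewise changed sign, with a difference of 1.38 (SE 0.293). MIR1915HG read 5.54 and 4.75 RPKM in WT DMSO+EGF and 3.93 and 2.86 with cordycepin, against 3.80 and 3.37 and then 4.12 and 6.16 in AMPK KO cells, a difference of 0.99 (SE 0.332). Without EGF it read 4.50 and 3.31 in WT DMSO and 3.65 and 4.55 in AMPK KO DMSO. MIR3936HG went the other way, from 2.96 and 3.34 to 2.68 and 1.65 RPKM in AMPK KO cells, a difference of -1.21 (SE 0.383). In limma the adjusted p of SNHG32, SNHG4, SNHG26 and MIR503HG was 0.122, which was the lowest in the table. Other genes shared this value, among them the nonsense-mediated decay genes UPF2 and SMG1 described below, so it does not rank these hosts first. When only the 4 groups compared were fitted, 4 hosts passed an adjusted p of 0.05 (5.11% of all genes did), namely SNHG32, SNHG26 and SNHG4, each at 0.038, and MIR155HG at 0.048. With voom on the recovered reads 7 hosts passed, against 9.68% of all genes.

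**Figure D4:**
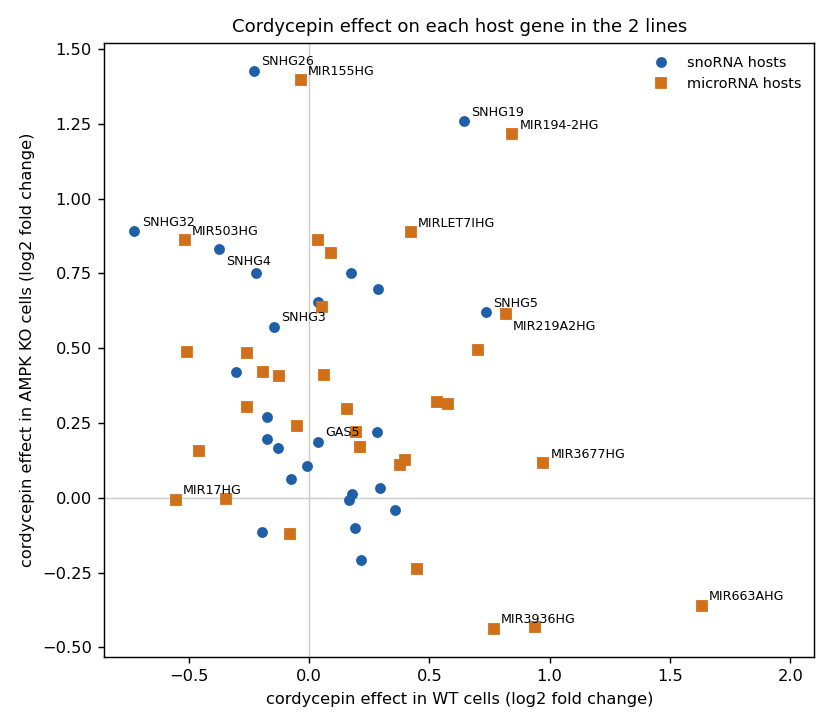
Log2 fold change with cordycepin in WT cells (horizontal axis) and in AMPK KO cells (vertical axis) for 25 snoRNA hosts (blue circles) and 32 microRNA hosts (orange squares). SNHG32 (-0.72 and 0.89) and MIR503HG (-0.52 and 0.86) lie at the upper left, SNHG19 (0.65 and 1.26) at the upper right, and MIR3936HG (0.77 and -0.44) at the lower right.

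The comparison of AMPK KO with WT cells over the 3 treatments gave 2 hosts with an adjusted p below 0.05 in limma, both microRNA hosts, against 4.34% of all genes. With voom these 2 and SNHG32 passed, against 10.4% of all genes. The class medians were -0.04 for the snoRNA hosts and 0.01 for the microRNA hosts, against 0.00 for all genes. At an unadjusted p below 0.05, 1 snoRNA and 1 microRNA host were higher in AMPK KO cells (background 10.9%) and 4 snoRNA and 2 microRNA hosts lower (background 9.44%).

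MIR34AHG, the host of the p53 target miR-34a, rose in AMPK KO cells. GENCODE places this gene at chr1:9148011-9198906 on the minus strand of GRCh38, with miR-34a inside an exon. It read 2.44 and 2.54 RPKM in WT DMSO, 3.15 and 2.76 in WT DMSO+EGF and 4.04 and 3.70 in WT cordycepin+EGF, and 5.25 and 5.45, 4.44 and 4.93, and 5.76 and 4.19 in the corresponding AMPK KO groups. All 6 AMPK KO libraries lay above all 6 WT libraries, which held for 1.65% of genes. The log2 difference was 0.63 (SE 0.0976, adjusted p = 0.0106 in limma), and without AMPK KO DMSO+EGF replicate 3 the adjusted p was 0.051. Taken treatment by treatment it was 0.95 in DMSO, 0.60 in DMSO+EGF and 0.33 in cordycepin+EGF, and the adjusted p of each lay between 0.051 and 0.412. LNCTAM34A, whose exons overlap MIR34AHG on the opposite strand, had a difference of 0.55 (SE 0.154, adjusted p = 0.0836), and since the strand setting of the read counting was not stated, reads of the 2 genes could not be told apart.

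MIR4458HG, the host of a microRNA with the let-7 seed, fell in AMPK KO cells. It lies at chr5:8450701-8486930 on the plus strand, with the microRNA inside an exon. It read 1.14 and 0.895 RPKM in WT DMSO, 0.836 and 0.868 in WT DMSO+EGF and 1.1 and 1.42 in WT cordycepin+EGF, and 0.432 and 0.496, 0.391 and 0.271, and 0.473 and 0.315 in the corresponding AMPK KO groups. All 6 AMPK KO libraries lay below all 6 WT libraries, which held for 1.01% of genes. The log2 difference was -0.77 (SE 0.109, adjusted p = 0.00708 in limma), and it was -0.66, -0.69 and -0.97 in the 3 treatments. MIR4458HG had at least 26 reads in every library. LINC02226, which overlaps it on the opposite strand, had a difference of 0.10 (SE 0.137).

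**Figure D5:**
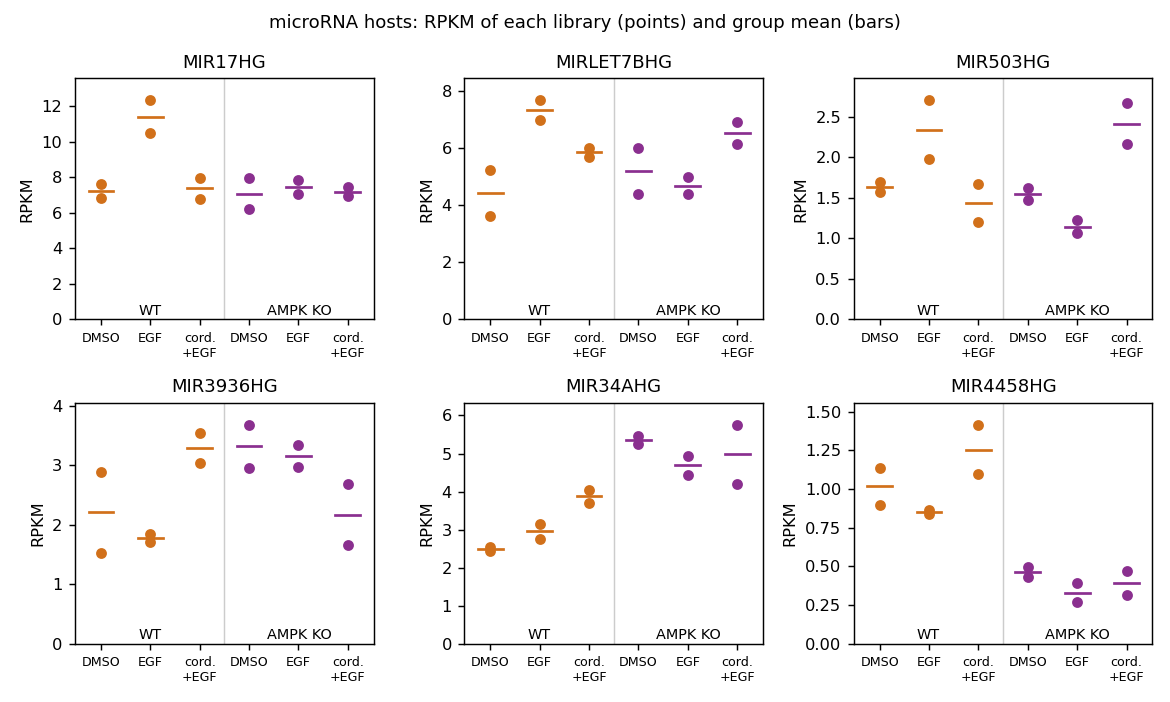
RPKM of 6 microRNA hosts in each library (points) and as group means (bars), for WT cells (orange, left) and AMPK KO cells (purple, right) with DMSO, EGF or cordycepin and EGF. The AMPK KO libraries of MIR34AHG (4.19 to 5.76 RPKM) lie above its WT libraries (2.44 to 4.04) and those of MIR4458HG (0.271 to 0.496) below its WT libraries (0.836 to 1.42).

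The snoRNA hosts had no member with separate lines over all treatments. SNHG32 was nearest to the threshold (-0.42, SE 0.104, adjusted p = 0.0577 in limma), and by treatment its difference was -1.23 with DMSO+EGF (adjusted p = 0.0225), -0.42 with DMSO and 0.39 with cordycepin+EGF. SNHG29 read 14.4 and 17 RPKM in WT DMSO and 21.9 and 22.8 in AMPK KO DMSO, but 18.1 and 19.6 against 16.5 and 19.1 with cordycepin+EGF, and its mean difference was 0.21 (SE 0.067, adjusted p = 0.116). Of the other hosts with the let-7 seed, MIRLET7BHG and MIRLET7IHG showed differences near 0, with -0.07 (SE 0.11) and 0.06 (SE 0.115). MIR99AHG was not tested, and the values of MIRLET7A1HG are not described here. MIR181A2HG, host of miR-181a-2 and miR-181b-2 and among the 4 most abundant microRNA hosts, read 6.17 and 4.0 in WT DMSO, 4.15 and 4.2 in WT DMSO+EGF, 5.45 and 3.25 in WT cordycepin+EGF, 4.0 and 4.14 in AMPK KO DMSO, 3.36 and 2.95 in AMPK KO DMSO+EGF, and 6.72 and 3.70 in AMPK KO cordycepin+EGF. Its 2 cordycepin groups each held a high and a low library, and it had an unadjusted p of at least 0.0697 in every comparison.

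The tested snoRNA hosts that had a promoter entry were also split by the pyrimidine run at the RefSeq start, without a test of the difference. For EGF in WT cells the 13 with a run had a median log2 fold change of 0.28 and 12 were above 0. The 8 without had a median of 0.41 and all 8 were above 0, against 52.3% of all genes. With cordycepin in AMPK KO cells the medians were 0.27 and 0.30. The split depends on the start used. GAS5 and SNHG20, both counted without a run, have RefSeq starts 163 and 1927 bases from the outermost GENCODE start.

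The genes for proteins that make and use the small RNAs were then examined. Of 22 genes for snoRNA-protein assembly, 0 had an adjusted p below 0.05 in limma for EGF or cordycepin in either line. With an unadjusted p below 0.05 there were 1 and 0 lower for EGF (background 3.53% and 1.4%) and 4 and 3 lower for cordycepin (background 7.13% and 10.1%) in WT and AMPK KO cells, and none higher. Between the lines 1 of the 22 passed, against 4.34% of all genes. This was RUVBL1, an ATPase of the assembly machinery, which rose in AMPK KO cells (0.43, SE 0.0984, adjusted p = 0.0461 in limma). For EGF in WT cells 10 of the 22 were above 0 (52.3% of all genes were), with a median of -0.03. For cordycepin in AMPK KO cells 18 of the 22 were below 0 (44.9% of all genes were), with a median of -0.18, and NUFIP1, a box C/D assembly factor, had -0.42 (SE 0.118). Of 17 tested genes of microRNA processing 1 passed between the lines, again against 4.34% of all genes, namely DIS3L2, the exonuclease that degrades uridylated let-7 precursors, which rose in AMPK KO cells (0.66, SE 0.0924, adjusted p = 0.007). With cordycepin in AMPK KO cells 15 of the 17 were below 0 (44.9% of all genes), among them DICER1 at -0.42 (SE 0.0967, adjusted p = 0.0726 in limma). This direction was not particular to that comparison, as 14 of the 17 were below 0 for EGF in WT cells (47.7% of all genes). With cordycepin in WT cells 10 were below 0 (46.5%), and for EGF in AMPK KO cells 12 were above 0 (51.4%).

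Of 18 genes of nonsense-mediated decay, the pathway that removes many snoRNA host transcripts, none had an adjusted p below 0.05 in any of the 7 comparisons in limma. With cordycepin 13 were above 0 in WT cells (median 0.22, 53.5% of all genes above 0) and 13 below 0 in AMPK KO cells (median -0.29, 44.9% of all genes below 0). At an unadjusted p below 0.05 there were 5 higher (background 8.86%) and 3 lower (7.13%) in WT cells, and 0 higher (11.7%) and 5 lower (10.1%) in AMPK KO cells. The difference between the lines was negative at an unadjusted p below 0.05 for 9 of the 18, among them UPF2 (-1.23, SE 0.262) and SMG1 (-0.63, SE 0.159), against 10.5% of all genes. It was positive at this level for 2 of the 18 (background 10.9%).

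Exons of 34 listed hosts overlapped those of another listed gene, 31 on the opposite strand and 7 on the same strand. For SNHG26 the unnamed pseudogene on the opposite strand, ENSG00000226329, had a log2 fold change with cordycepin in AMPK KO cells of 1.73 (SE 0.305), near that of SNHG26 itself, and for SNHG4 the opposite gene SIL1 had 0.75 (SE 0.223). RCC1, which overlaps SNHG3 on the same strand, had -0.29 (SE 0.125) where SNHG3 had 0.57. LRRC75A, opposite to SNHG29, had 1.33 (SE 0.175, adjusted p = 0.029 in limma) where SNHG29 had -0.10. The part of reads from overlapping genes in the values of the hosts was not tested.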

How the data were processed

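RNA-seq values came from 1 deposited table of 12 HEK293 libraries. The authors aligned 150-base paired reads from a stranded, ribosomal-RNA-depleted total RNA library to GRCh38.p13 and counted genes with Rsubread, and the deposited values are RPKM. They left out a first replicate of each group as outlying. The strand setting of the counting is not given in the sources used here. The members and the gene lists were chosen with earlier results of these data known.

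RPKM values were divided by each library's upper quartile and put on the log2(scaled RPKM + 0.5) scale, on which changes of low genes are understated. Genes averaging 0.5 RPKM or more were fitted with limma 3.58.1 in R 4.3.3, as 6 group means with a mean-variance trend, and p-values were adjusted (Benjamini-Hochberg) over 22067 genes for each of 7 comparisons, with a two-sided test. Because RPKM values are whole multiples of 1 read, reads could be recovered for 96.25% of genes (within 0.05 of a whole number in all 12 libraries) and for 60 of 64 hosts at the annotated exon length. For MIR17HG, MIR194-2HG, MIR29B2CHG and MIRLET7A1HG a length that gave whole reads was searched for. The fit recovered known changes in simulated normal values that had the same spread in every group. This check does not cover groups of unequal spread.

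Values in each library are given for GAS5, for every host with an adjusted p below 0.05, for the 4 most abundant hosts of each class, and for up to 3 hosts per class and comparison with the largest change among those with an unadjusted p below 0.05, no overlap between groups and a mean of at least 0.5 RPKM in the libraries compared. SNHG10, SNHG11, SNHG12, SNHG17, SNHG25, SNHG30 and SNHG31 were named after their values were seen. Replicate numbers are not stated to mark a common culture or day, so the samples were not treated as paired.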

Additional observations from a re-analysis of the deposited data

How the results depend on the processing

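The median of the snoRNA hosts for EGF in WT cells was 0.37, against 0.48 with a pseudocount of 0.1 and 0.45 with voom. For cordycepin in AMPK KO cells 0 hosts had an adjusted p below 0.05 (0.471% of all genes), and 11 with voom (5.38%). With a pseudocount of 1, without the filter on low values or without the trend 1 host (SNHG26) passed, against 0.689%, 0.898% and 0.73% of all genes. Voom gave 3 hosts for cordycepin in WT cells (3.5% of all genes) and 7 for the difference of the cordycepin effect (9.68%), in place of 0. For that difference, fitting only the groups compared gave 4 (5.11%). Between the lines 2 hosts passed (4.34% of all genes), 3 with voom (10.4%) and 1 when only genes averaging 1 RPKM or more were tested (4.54%). Within DMSO, DMSO+EGF and cordycepin+EGF 0, 1 and 0 passed (0.44%, 1.74% and 0.118% of all genes). The snoRNA host median was there 0.16 within DMSO and -0.22 within DMSO+EGF, and the microRNA host median 0.18 within cordycepin+EGF. Leaving out 1 library at a time, the snoRNA host median lay between 0.27 and 0.42 for EGF in WT cells, -0.17 and 0.03 for EGF in AMPK KO cells, -0.054 and 0.13 for cordycepin in WT cells, 0.22 and 0.30 for cordycepin in AMPK KO cells, and -0.50 and -0.25 for the difference of the EGF effect. The microRNA host median lay between 0.0097 and 0.30 for cordycepin in WT cells and 0.11 and 0.41 for the difference of the cordycepin effect. Hosts with an adjusted p below 0.05 then numbered 0 to 2 for EGF in WT cells (2 without WT DMSO replicate 2), 0 to 11 for cordycepin in AMPK KO cells, 1 to 5 between the lines (5 without WT DMSO replicate 3, 1 without AMPK KO DMSO+EGF replicate 3) and 0 to 7 for the difference of the cordycepin effect, the highest without either WT DMSO library. Over all alternatives 6 class medians changed sign in at least 1, among them the snoRNA host medians for EGF in AMPK KO cells, for cordycepin in WT cells and between the lines. Of the values for named hosts 137 had the opposite sign, 0 of them with an adjusted p below 0.05 in either fit. The causes were not tested. The differences between replicates 2 and 3 correlated at 0.136 to 0.314 among the WT groups, -0.122 to 0.031 among the AMPK KO groups and -0.081 to 0.322 between the lines, which does not establish a pairing. With the replicate block within each line, MIR34AHG and MIR4458HG had adjusted p values of 0.026 and 0.021 between the lines, and with a replicate block over both lines 0.014 and 0.012. Neither block changed a call for a host. Over all genes the block within each line gave 18 calls for cordycepin in AMPK KO cells in place of 104, and the block over both lines 92. Depth limits MIR155HG, MIR194-2HG, MIR219A2HG and MIR3677HG, which had 1 to 8 reads in their lowest library.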

Other observations

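MIR663AHG, a microRNA host with no call in any comparison, was chosen here after its values were seen. It read 6.17 RPKM (694 reads) in WT DMSO replicate 2 and 7.10 RPKM (1354 reads) in WT cordycepin+EGF replicate 2. In the other 10 libraries it read 0.393 to 1.18 RPKM, so that the 2 libraries of each of these WT groups differed widely.

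A row of their own was given to 7 small RNAs inside listed hosts, although libraries of long RNA are not made to hold them and whether these reads come from the host transcripts was not tested. SNORA73B, inside SNHG3, read 71.1 and 123 RPKM in WT DMSO (247 and 101 reads) and 180 and 144 in WT DMSO+EGF (932 and 484 reads). The log2 fold change was 0.75 (SE 0.345), with an adjusted p of 0.514 in limma, and for EGF in AMPK KO cells it was -0.36 (SE 0.345). MIR181A2, in an intron of MIR181A2HG, read 5.26 and 3.95 RPKM in AMPK KO DMSO+EGF (8 and 6 reads) and 16.1 and 8.16 in AMPK KO cordycepin+EGF (26 and 17 reads). The log2 fold change was 1.29 (SE 0.377), with an adjusted p of 0.111 in limma.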
